A study of Mus musculus with 12 samples.

Results

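The genes of the proteasome were examined in liver and quadriceps muscle of mice with a hypomorphic mutation of PGC1beta, the product of Ppargc1b, which works with transcription factors to switch on genes of mitochondria and of fat metabolism. The genes were taken by symbol, as every probe set with a single gene symbol that begins with Psma, Psmb, Psmc, Psmd, Psme, Psmf or Psmg followed by a number. This gave 103 probe sets for 49 genes, of 45037 probe sets and 18193 genes in all. By symbol there were 8 Psma, 11 Psmb, 7 Psmc, 14 Psmd, 4 Psme, 1 Psmf and 4 Psmg genes. Of these, 22 genes had 1 probe set and 27 had several, up to 8 for Psmd11. Psmc3ip, a factor of meiotic recombination, and Psme3ip1, a binding partner of Psme3, match the symbol rule but are not subunits, and they were counted as a class of their own. The only probe set of Psme2 lists a second symbol and so did not qualify.

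RNA of 12 samples was hybridised to Affymetrix Murine 430 2.0 arrays, with 3 arrays in each of 4 groups: liver of PGC1beta mutant mice, liver of control mice, quadriceps of PGC1beta mutant mice and quadriceps of control mice. All mice were C57BL/6. The labels give neither the structure of the mutant allele nor the age, sex or feeding state of the mice, and they do not say that the 3 samples of a group came from separate animals, so the p-values describe how much these samples scattered, which can be technical scatter. In bulk tissue, fewer cells of a type and less RNA per cell cannot be told apart.

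The proteasome degrades proteins that carry ubiquitin chains. Its barrel-shaped core particle is built of alpha rings, which gate the entrance, and beta rings, in which Psmb5, Psmb6 and Psmb7 carry the chymotrypsin-like, caspase-like and trypsin-like active sites. Interferon induces Psmb8, Psmb9 and Psmb10, which take the places of Psmb5, Psmb6 and Psmb7 in newly built particles and form the immunoproteasome. A regulatory particle caps the core. Its base holds a ring of Psmc ATPases that unfold substrates, and its lid holds Psmd14, which removes the ubiquitin chain. Other caps are the activators Psme1 with Psme2, Psme3, and Psme4, while Psmf1 binds the core as a regulator first described as an inhibitor. In mammals the transcription factor Nfe2l1 raises the subunit genes together when proteasome capacity falls short. The proteasome degrades newly made apolipoprotein B in hepatocytes and myofibrillar proteins in wasting muscle.

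In mutant liver all 15 alpha and constitutive beta genes of the core particle had positive differences from control liver, 4 of them past the test. Psma8, among the 15, had low values. The genes of the regulatory particle were divided. Of 48 proteasome genes tested, 5 rose and 0 fell, a share of 10.4% higher, where 2.33% of the 13327 genes tested rose and 1.03% fell. An unadjusted p under 0.05 was found for 22 of the 48, against 19.6% of all genes tested, and a positive difference for 36, against 51.2%. Those that rose were the alpha subunits Psma3, Psma7, Psma5 and Psma6 and the lid deubiquitinase Psmd14. The median log2 difference was 0.29 over the proteasome genes and 0.01 over all genes tested. RNA integrity, read as the log2 ratio of 3′ to 5′ signal of control probe sets, moved with genotype, at 1.90, 0.90 and 1.87 in mutant livers against 0.50 to 0.97 in control livers. When limma held RNA integrity as a covariate 0 of the 48 genes passed, 7 had an unadjusted p under 0.05, 29 were positive and the median was 0.10. Of all 13327 genes, 0 rose and 2 fell in that fit, and 1009 had an unadjusted p under 0.05. The count was also 0 without a variance trend, with the replicate number as a block, and in 5 of the 6 fits that left out 1 liver array. Of all genes tested, 0 passed without the trend, and 10 rose and 1 fell with the block. In those 5 fits 0 to 41 of all genes rose and 0 to 2 fell.

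In mutant muscle, 0 of 47 proteasome genes passed the test in limma, and 1 had an unadjusted p under 0.05. The background there was 0.0152% of 13131 genes past the test, or 2 genes, and 4.26% with an unadjusted p under 0.05.

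Sequence upstream of the annotated start is shown for genes chosen for the reasons given below. All come from RefSeq with coordinates on GRCm38.p6, and each line ends at the base before the annotated start and reads along the gene's strand. Psma5 (chr3:108256776-108256925, plus strand), Psma6 (chr12:55384072-55384221, plus strand), Psma7 (chr2:180042465-180042614, minus strand) and Psmd14 (chr2:61711544-61711693, plus strand) are shown because they rose in mutant liver. Psmc6 (chr14:45329574-45329823, plus strand) and Psmb5 (chr14:54617996-54618145, minus strand) are shown because they hold the core of the antioxidant response element, to which Nfe2l1 and Nfe2l2 bind. Psmb9 (chr17:34187331-34187480, minus strand) is shown as an immunoproteasome gene. Psmc6, Psmb5 and Psmb9 did not pass the test in mutant liver. Capitals mark matches to that core or to the CCAAT box on either strand.
Psma5: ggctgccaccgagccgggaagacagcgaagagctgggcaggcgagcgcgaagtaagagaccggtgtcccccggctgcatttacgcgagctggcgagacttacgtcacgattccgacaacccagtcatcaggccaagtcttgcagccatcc
Psma6: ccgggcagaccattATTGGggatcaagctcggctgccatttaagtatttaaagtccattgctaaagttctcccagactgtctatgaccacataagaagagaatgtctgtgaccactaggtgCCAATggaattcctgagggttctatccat
Psma7: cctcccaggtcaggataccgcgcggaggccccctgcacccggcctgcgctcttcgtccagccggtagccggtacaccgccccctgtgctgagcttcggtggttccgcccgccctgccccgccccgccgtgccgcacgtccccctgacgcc
Psmd14: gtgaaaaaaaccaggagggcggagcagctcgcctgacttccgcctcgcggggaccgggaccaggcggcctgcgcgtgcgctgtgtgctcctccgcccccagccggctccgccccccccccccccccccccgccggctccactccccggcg
Psmc6: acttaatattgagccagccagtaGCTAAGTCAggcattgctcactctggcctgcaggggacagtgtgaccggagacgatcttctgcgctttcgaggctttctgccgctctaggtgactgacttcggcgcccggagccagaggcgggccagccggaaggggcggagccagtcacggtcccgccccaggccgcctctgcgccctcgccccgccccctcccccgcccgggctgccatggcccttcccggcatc
Psmb5: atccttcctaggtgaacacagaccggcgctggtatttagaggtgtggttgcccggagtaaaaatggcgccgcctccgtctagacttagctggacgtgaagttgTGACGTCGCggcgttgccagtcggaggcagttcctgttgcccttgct
Psmb9: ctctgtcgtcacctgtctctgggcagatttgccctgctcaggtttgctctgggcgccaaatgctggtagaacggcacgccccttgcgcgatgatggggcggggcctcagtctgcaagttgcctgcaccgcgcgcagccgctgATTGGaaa

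Of the 49 genes, 41 had a RefSeq promoter window, which runs from 250 bases before to 50 bases after the start. The antioxidant response element core was searched as TGACNNNGC on both strands, and 6 of the 41 genes held it (14.6%), against 14.0% of all 27025 genes with a window. The 6 were Psmb5, Psmb6, Psmc6, Psmd12, Psmd9 and Psme4. The interferon-stimulated response element core, searched on both strands as GAAA, any 2 bases and GAAA again, was in 5 genes (12.2%), against 3.99% of all genes, namely Psmb3, Psmd4, Psmd9, Psmg4 and Psme1. The CCAAT box was in 16 genes (39.0%) against 41.1% of all genes. Among the genes that rose, Psma6, Psma7 and Psmd14 held CCAAT within their whole window and Psma5 held none of the 3 motifs. Psma3 counts among the 16, but the start of its window lies inside the annotated gene, so its match may not be in the promoter and none of it is shown. The annotated start used for Psme3ip1, also among the 16, and that for Psmb6, among the 6, likewise lie inside the gene. These are matches of letters in a short window, and binding was not measured.

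The alpha ring was the class with the most genes past the test. Of 8 alpha genes 4 rose, all 8 had a positive difference, and the median log2 difference was 0.56. Groups did not overlap for 6 of the 8, each with every mutant above every control, where 13% of all genes tested were so and 11% were lower without overlap. Intensities below are quantile-normalised within a tissue, and differences are log2 mutant minus control with their standard error (SE) and a p from limma adjusted by Benjamini-Hochberg over every gene tested.

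Psma3, an alpha subunit, had intensities of 4246, 3752 and 3809 in mutant livers 1, 2 and 3, against 2393, 2564 and 2456 in control livers 1, 2 and 3. Every mutant lay above every control, and the groups were tight, at 3935 ± 270 in mutants and 2471 ± 86.3 in controls (SD, n = 3 each). The difference was 0.67 (SE 0.10, 95% interval 0.45 to 0.89, adjusted p = 0.0181). Psma7 had 2614, 1941 and 1850 in mutant livers, against 1164, 1157 and 1353 in control livers. Mutant 1 stood highest and the groups did not overlap, with means of 2135 ± 417 in mutants and 1225 ± 111 in controls (SD, n = 3 each). The difference for Psma7 was 0.78 (SE 0.15, 95% interval 0.45 to 1.11, adjusted p = 0.0267), the highest among the 48 genes tested.

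Psma5 had 2029, 1766 and 1694 in mutant livers, against 1090, 1072 and 1366 in control livers, a difference of 0.64 (SE 0.14, adjusted p = 0.0368). Psma6 had 3100, 2473 and 2417 in mutant livers, against 1718, 1778 and 1947 in control livers, a difference of 0.54 (SE 0.13, adjusted p = 0.0467). In both alpha genes the groups did not overlap and mutant 1 was the highest array. Psma2 had 1876, 1876 and 1941 in mutant livers, against 1296, 1393 and 1454 in control livers. Its groups did not overlap either, and its difference of 0.46 (SE 0.11, adjusted p = 0.0531) lay just outside the threshold of 0.05. The other 3 alpha genes did not pass. Psma1 had a difference of 0.29 and Psma4 of 0.29, and in each control 3 lay above at least 1 mutant. Psma8, a testis-specific alpha subunit, had 43.1, 41.7 and 41.6 in mutant livers, against 33.1, 16.3 and 21.1 in control livers, a difference of 0.58 (adjusted p = 0.268).

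**Figure D1:**
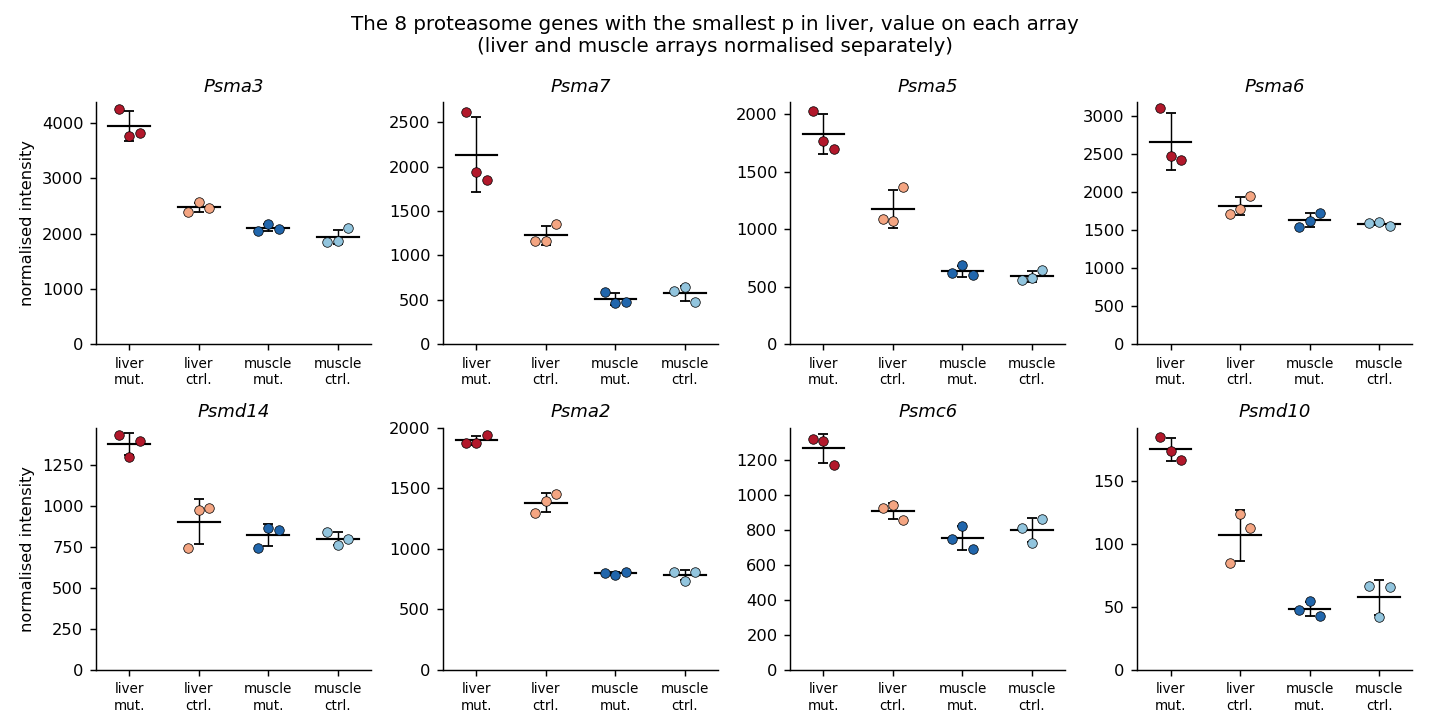
Normalised intensity (vertical axis) on each array for the 8 proteasome genes with the smallest p in liver, with mutants left of controls in each tissue; points are arrays and bars the mean ± SD of 3 arrays. In liver every mutant point lies above every control point in all 8 genes, from Psma3 (3935 against 2471) to Psmd10 (176 against 107), while the muscle groups overlap in all 8. Liver and muscle were normalised separately, so levels cannot be read across tissues.

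The constitutive beta ring had positive differences too, without a gene past the test. Of 7 genes 0 rose, 7 had a positive difference, 5 had an unadjusted p under 0.05 and 6 had groups without overlap, with a median of 0.31. Psmb6, the caspase-like subunit, had 2044, 1721 and 1921 in mutant livers, against 1188, 1512 and 1410 in control livers, a difference of 0.47 (SE 0.13, adjusted p = 0.0810). Psmb5, the chymotrypsin-like subunit, had 2357, 1955 and 2336 in mutant livers, against 1524, 1790 and 1583 in control livers, a difference of 0.44 (SE 0.12, adjusted p = 0.0834). In both catalytic genes mutant 2 was the lowest mutant and still stood above all controls. Psmb7, the trypsin-like subunit, had 4318, 4221 and 5005 in mutant livers, against 3839, 3989 and 4125 in control livers, a difference of 0.18 (SE 0.10, adjusted p = 0.371). The non-catalytic Psmb1, Psmb2, Psmb4 and Psmb3 had differences of 0.46, 0.31, 0.29 and 0.04. Taking alpha and constitutive beta genes as the core particle, 4 of 15 rose, all 15 differences were positive and 12 had no overlap between groups, with a median of 0.46. Of all genes tested 13% were higher without overlap. Psma8, counted in the 15 and the 12, had low values, at 16.3 to 43.1 on liver arrays beside an offset of 16.

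The inducible and tissue-specific beta genes had the widest spread of the classes among control livers, with a median log2 SD of 0.57. Psmb9 had 323, 315 and 347 in mutant livers, against 198, 298 and 109 in control livers, a difference of 0.76 (SE 0.28, adjusted p = 0.168). Psmb8 had 368, 250 and 344 in mutant livers, against 205, 299 and 111 in control livers, a difference of 0.69 (SE 0.29, adjusted p = 0.232). Control 3 was the lowest array in both genes and control 2 the highest control. Psmb10 had 409, 331 and 485 in mutant livers, against 249, 458 and 256 in control livers, a difference of 0.37 (SE 0.24, adjusted p = 0.440), and control 2 was again the highest control. The log2 SD of Psmb9 and Psmb8 among control livers was 0.66 in each, the widest of the 49 genes, where the median SD over all proteasome genes was 0.14 in mutant livers and 0.19 in control livers. The thymus-specific Psmb11 had a difference of -0.36, with arrays between 6.17 and 53.5. Leaving out 1 array moved Psmb8 between 0.34 (without control 3) and 0.99 (without control 2), Psmb9 between 0.41 and 1.07 without those same arrays, and Psmb10 between 0.23 (without control 1) and 0.64 (without control 2). None of the 4 genes passed the test, and their intervals are wide, at 0.14 to 1.38 for Psmb9 and -0.16 to 0.90 for Psmb10.

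**Figure D2:**
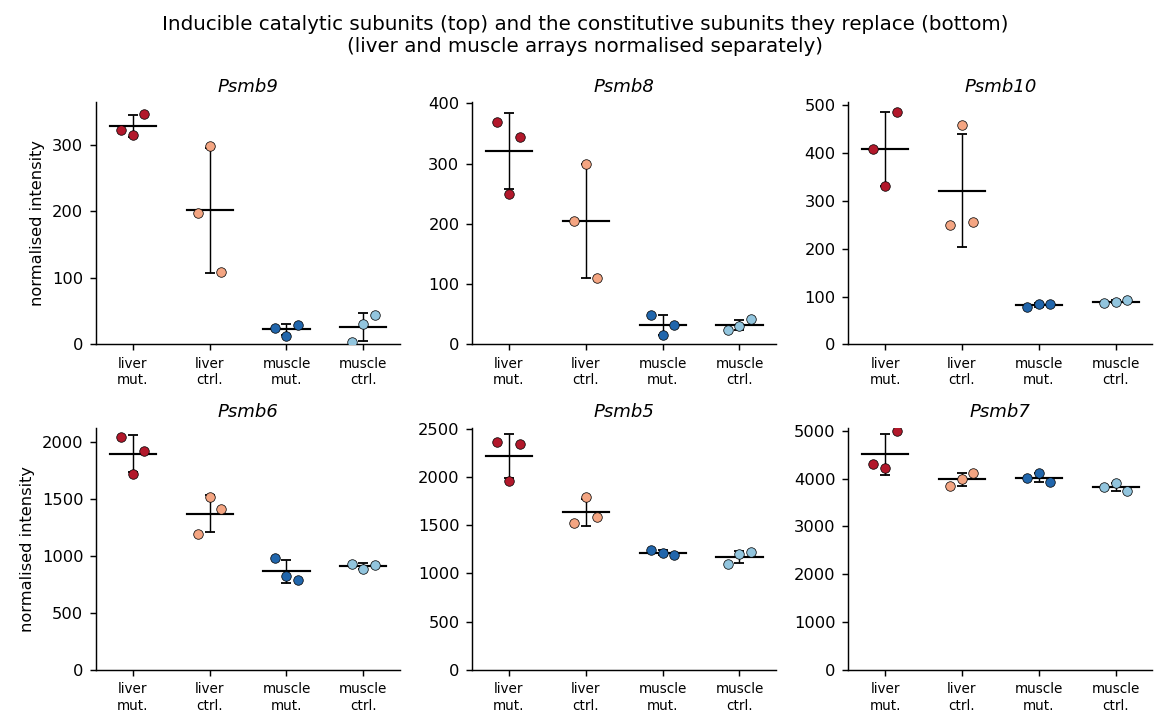
Normalised intensity (vertical axis) on each array for the inducible catalytic subunits Psmb9, Psmb8 and Psmb10 (top) and the constitutive subunits Psmb6, Psmb5 and Psmb7 whose places they take (bottom), mutants left of controls in each tissue; bars are the mean ± SD of 3 arrays. Control livers spread widely for Psmb9 (109 to 298) and Psmb8 (111 to 299), and in muscle the groups overlap for Psmb9 and Psmb8. Liver and muscle were normalised separately, so levels cannot be read across tissues.

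The regulatory particle was less uniform. Over its base and lid, 1 of 17 genes rose, 11 differences were positive and 6 negative, and the median was 0.09. Psmd14, the deubiquitinase of the lid, had 1433, 1303 and 1395 in mutant livers, against 746, 979 and 988 in control livers. The groups did not overlap and control 1 was the lowest array. The difference was 0.61 (SE 0.14, 95% interval 0.29 to 0.92, adjusted p = 0.0467). Of the other lid genes, Psmd6 had a difference of 0.52 (adjusted p = 0.0885) and Psmd13 of 0.42 (adjusted p = 0.298), whereas Psmd3 had -0.39 (adjusted p = 0.179) with every mutant below every control. Psmd11 had -0.13 with every mutant below every control, and Psmd7, Psmd8 and Psmd12 lay between -0.01 and 0.16. The lid as a whole had a median of 0.12 over 8 genes. Without overlap, 2 of the 8 were higher and 2 lower, where 13% and 11% of all genes tested were.

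Among the 6 ATPases 0 passed and 5 were positive, with a median of 0.32. Psmc6 had 1320, 1309 and 1171 in mutant livers, against 923, 941 and 855 in control livers, a difference of 0.47 (SE 0.12, adjusted p = 0.0627), with no overlap. Psmc3 had 0.45 (adjusted p = 0.171), also with no overlap, while Psmc5 had -0.02. The 3 non-ATPase members of the base had a median of -0.16, with the scaffold genes Psmd2 at -0.23 and Psmd1 at -0.16 and the ubiquitin receptor Psmd4 at 0.07.

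Of the caps that can take the place of the regulatory particle, Psme3 and Psme4 had negative differences. Psme3, a mainly nuclear activator, had 239, 274 and 227 in mutant livers, against 339, 396 and 362 in control livers, a difference of -0.54 (SE 0.15, adjusted p = 0.0827). Psme4, the cap known for its work in DNA repair and spermatogenesis in mice, had 644, 784 and 621 in mutant livers, against 838, 909 and 928 in control livers, a difference of -0.38 (SE 0.14, adjusted p = 0.167). Every mutant was below every control in both genes, though neither passed the test. Psme1, which interferon induces, had 1545, 1181 and 1430 in mutant livers, against 1184, 1265 and 1184 in control livers, a difference of 0.18 (SE 0.13, adjusted p = 0.502) with overlap. Psmf1 had -0.25, also with overlap.

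Of the 7 assembly chaperones 0 passed, 5 were positive and the median was 0.20. Psmd10, known as gankyrin, which helps to assemble the base, had 186, 174 and 167 in mutant livers, against 84.7, 124 and 113 in control livers, a difference of 0.65 (SE 0.18, adjusted p = 0.0747). Psmg4, a chaperone of the alpha ring, had 0.67 (adjusted p = 0.0860). Both had every mutant above every control. Psmg2, which pairs with Psmg1 in that step, had -0.34 and Psmg1 had 0.20, both with overlap.

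**Figure D3:**
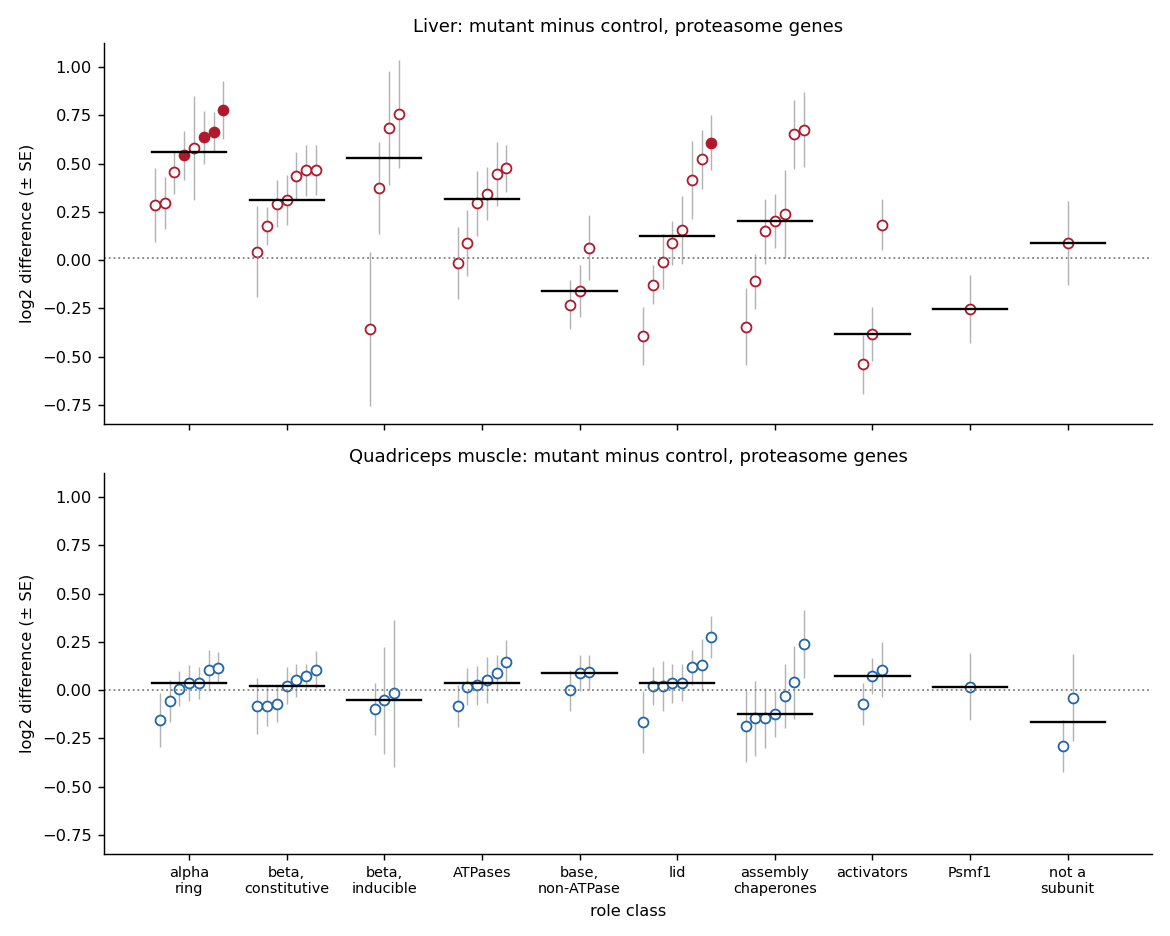
Log2 difference, mutant minus control (axis in log2 units), for each proteasome gene by role in liver and in muscle; points are genes, filled where the adjusted p is under 0.05, with bars of ± 1 SE, black bars the class medians and a dotted line the median of all genes tested. In liver the alpha class sits highest (median 0.56) and the activators lowest (median -0.38), while in muscle every class median lies between -0.16 and 0.09.

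The class medians of the alpha ring, the activators and the constitutive beta ring each separated the genotypes on single arrays. Over all genes tested the medians were 0.04, -0.003 and 0.05 in mutant livers 1, 2 and 3, against -0.004 to 0.02 in control livers. Relative to the mean of the control livers, the alpha genes had medians of 0.69, 0.51 and 0.51 in mutant livers 1, 2 and 3, against -0.08, -0.05 and 0.12 in control livers. The activators had -0.46, -0.18 and -0.51 in mutant livers, against -0.09, 0.06 and -0.01 in control livers. The constitutive beta genes had 0.45, 0.25 and 0.41 in mutant livers, against -0.18, 0.11 and 0.05 in control livers. None of these 3 class medians overlapped between genotypes. The activator class holds only 3 genes, and 1 of them, Psme1, had a positive difference of 0.18 with overlap. The lid had 0.10, 0.13 and 0.23 in mutant livers, against -0.11, 0.10 and -0.04 in control livers, where mutant 1 and control 2 had like values. The inducible class had 0.56, 0.23 and 0.71 in mutant livers, against 0.01, 0.58 and -0.48 in control livers, so that control 2 stood above mutants 1 and 2.

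RNA integrity moved with genotype in liver. The mean log2 ratio of 3′ to 5′ signal over the control probe sets for Actb, Gapdh and Pcx was 1.90, 0.90 and 1.87 in mutant livers 1, 2 and 3, and ran from 0.50 to 0.97 in control livers. Mutants 1 and 3 thus stood above all controls and mutant 2 did not. With that ratio as a covariate, 0 proteasome genes passed, where 0 of all genes tested rose and 2 fell. The alpha median was then 0.52, with all 8 positive and 5 at an unadjusted p under 0.05. In that fit 1009 of all 13327 genes tested had such a p, and the median over all genes was -0.01. The constitutive beta median was 0.19 and the base and lid median 0.08. Without mutants 1 and 3 a single mutant array was left, so that the 3 controls alone gave the spread and 0 of all genes tested passed in either direction. Its differences from the controls had medians of 0.13 over the proteasome genes, 0.50 for alpha genes, 0.24 for constitutive beta genes and 0.07 for base and lid. Psmb8, at 0.69 in the fit without the covariate, was at -0.001 with it.

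**Figure D4:**
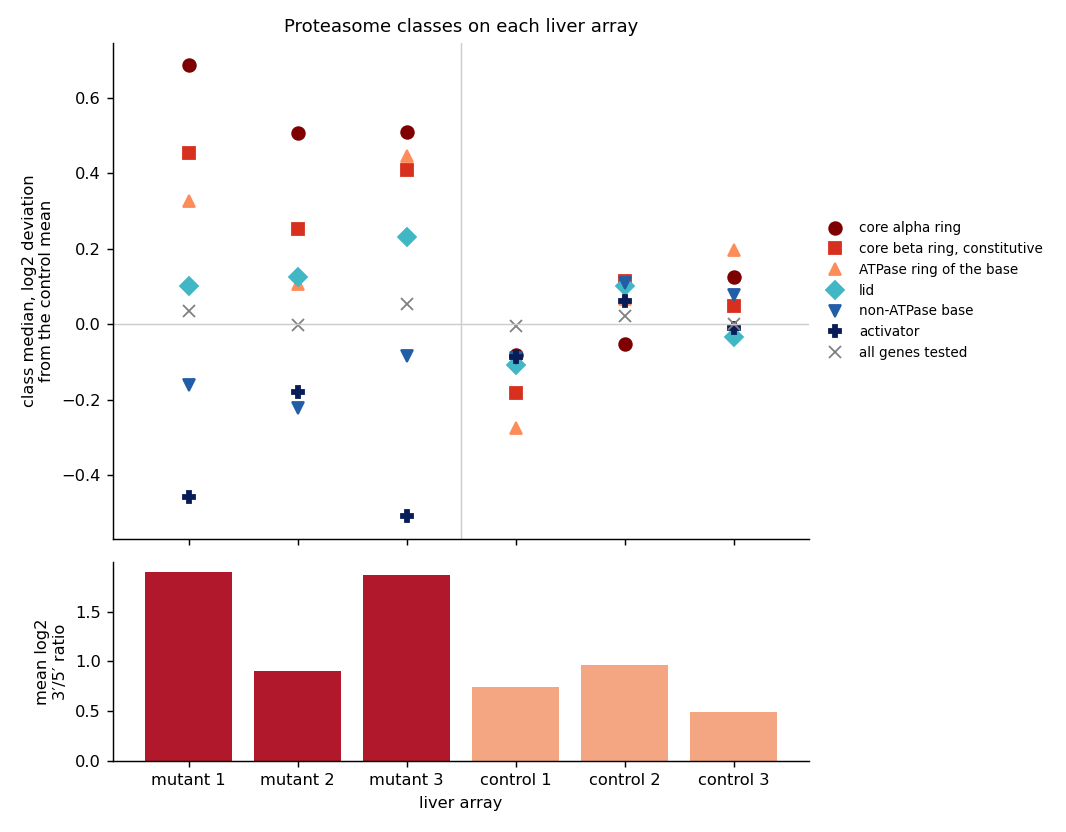
Median log2 value of each class on each liver array relative to the mean of the control livers (upper part, log2 units) and the mean log2 ratio of 3′ to 5′ signal of the control probe sets (bars), mutants left of controls. The alpha medians of mutants 1, 2 and 3 (0.69, 0.51 and 0.51) all lie above the controls, while the ratio is high in mutants 1 and 3 (1.90 and 1.87) and within the control range in mutant 2 (0.90).

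The count of 5 depended on single arrays. It was 0 without any 1 control, without mutant 1 or without mutant 3, and 6 without mutant 2, where Psma3 kept an adjusted p of 0.0159 in limma. Of all genes tested, 25, 0 and 24 rose and 2, 0 and 2 fell without controls 1, 2 and 3 in turn, against 310 and 137. Without mutant 1 or mutant 3, 0 and 41 rose and 0 and 2 fell. Without mutant 2, 390 rose and 348 fell, and the mutants left were 1 and 3, which had the high ratios of 3′ to 5′ signal. The difference for Psma3 lay between 0.60 and 0.70 and that for Psma7 between 0.62 and 0.87 over these fits. The median over the 48 genes was 0.17 without control 1.

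Where a gene had several probe sets, most pointed one way in liver. Of the 103 probe sets 86 were tested, of which 9 rose and 0 fell (10.5%), where 1.45% of 27022 probe sets rose and 0.607% fell. The 9 belonged to 6 genes. Among 22 genes with several tested probe sets, 17 had all of them on one side of 0 and 5 did not, namely Psma5, Psmd11, Psmg2, Psmc2 and Psmd7. Of the 3 sets for Psma5, those at 0.66 (adjusted p = 0.0321 over probe sets, limma) and 0.64 (adjusted p = 0.0492) contrast with the set at -0.32, which had 28.5, 40.9 and 9.84 in mutant livers, against 35.7, 29.0 and 39.2 in control livers. That set overlapped between groups. The 7 sets for Psmd11 ran from -0.60 to 0.26. Of the sets for Psmg2, that at -0.34 had 154, 177 and 263 in mutant livers, against 246, 268 and 234 in control livers, and that at 0.44 had 170, 181 and 230 in mutant livers, against 160, 136 and 121 in control livers. The sets for Psmc2 stood at 0.34, 0.11 and -0.41 and those for Psmd7 at 0.16 and -0.08, all with overlap. The set that stood for Psmc2 had 1540, 1284 and 1700 in mutant livers, against 1118, 1128 and 1292 in control livers. That for Psmd7 had 313, 298 and 340 in mutant livers, against 221, 314 and 323 in control livers. That for Psmd11 had 2462, 2286 and 2516 in mutant livers, against 2760, 2574 and 2597 in control livers, and was the only one of these 3 without overlap.

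Other sets showed a larger difference than the one that stood for the gene. Psmc4, an ATPase of the base, had a second set with 720, 436 and 714 in mutant livers, against 261, 256 and 267 in control livers, a difference of 1.17 (SE 0.20, adjusted p = 0.0285, limma over probe sets). Its representative set had a difference of 0.29, so the gene's call depends on the probe set. Psmc6 had sets at 1.06 (adjusted p = 0.0414), 0.86 (adjusted p = 0.0318) and 0.47 (adjusted p = 0.0820). Psma6 had a set with 3365, 2747 and 3015 in mutant livers, against 1613, 1787 and 1826 in control livers, a difference of 0.80 (adjusted p = 0.0252). The sets of Psma7 stood at 0.77 and 0.78.

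In muscle the proteasome genes differed little between genotypes. The median difference was 0.02 over 47 genes and 28 were positive, where 49.9% of all genes tested were. Groups did not overlap for 2 higher and 2 lower genes, where 4.31% of all genes were higher and 5.22% lower without overlap. Psmd13, a lid subunit, had 423, 384 and 435 in mutant muscle, against 326, 356 and 336 in control muscle, a difference of 0.28 (SE 0.11, unadjusted p = 0.0295, adjusted p = 0.994, limma). It was the gene with the smallest p. Psmb10 had 78.3, 84.6 and 85.1 in mutant muscle, against 87.3, 89.0 and 92.2 in control muscle, a difference of -0.10 without overlap. The others without overlap were Psmg1 at -0.12 and Psmb7, which had 4007, 4125 and 3937 in mutant muscle, against 3833, 3907 and 3748 in control muscle, a difference of 0.07. Psma3 had 2052, 2172 and 2081 in mutant muscle, against 1855, 1870 and 2092 in control muscle, a difference of 0.12 (95% interval -0.07 to 0.30). Psma7 had 587, 467 and 480 in mutant muscle, against 601, 641 and 477 in control muscle, a difference of -0.16 (95% interval -0.46 to 0.15). Groups overlapped in both.

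Psme3ip1 had the next smallest p, with 203, 173 and 184 in mutant muscle, against 256, 243 and 198 in control muscle, a difference of -0.29 (adjusted p = 0.994, limma). The assembly chaperone Psmg4 had 72.3, 69.6 and 68.0 in mutant muscle, against 63.9, 68.3 and 41.4 in control muscle, a difference of 0.24. Groups overlapped in these genes, by 1 array each. The ATPase Psmc1 had 466, 555 and 566 in mutant muscle, against 461, 469 and 495 in control muscle, a difference of 0.15, and the lid subunit Psmd6 had 2028, 2042 and 1941 in mutant muscle, against 2010, 1897 and 1647 in control muscle, a difference of 0.12. Both overlapped as well, and the averages over all probe sets of Psmg4 and Psmc1 had the opposite sign, at -0.04 and -0.05.

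Of the catalytic genes in muscle, Psmb9 had 24.9, 13.0 and 29.2 in mutant muscle, against 3.90, 30.1 and 44.7 in control muscle, with a difference of -0.02 and an interval of -0.87 to 0.83. That interval spans both signs widely. Psmb8 had 49.3, 15 and 32.5 in mutant muscle, against 24.5, 30.9 and 41.6 in control muscle, a difference of -0.05. Psmb5 had 0.05, Psmb6 -0.08 and the activator Psme1 -0.07. Psma8 and Psmb11 did not pass the filter on low values in muscle.

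The liver effect minus the muscle effect was tested directly for 46 proteasome genes, and 2 passed, both higher (4.35%, where 1.16% of 11842 genes were). An unadjusted p under 0.05 was found for 16, where 15.5% of all genes had one, and 33 differences were positive, where 52.3% of all were. Psma7 differed by 0.94 between the tissues (SE 0.21, 95% interval 0.48 to 1.39, adjusted p = 0.0460, limma), and Psma3 by 0.55 (SE 0.13, 95% interval 0.28 to 0.82, adjusted p = 0.0460). Next came Psmc6 at 0.56 (adjusted p = 0.0974), Psma6 at 0.50 (adjusted p = 0.116) and Psmd14 at 0.57 (adjusted p = 0.120), which did not pass. Psmb6 stood at 0.55 (adjusted p = 0.123), Psmd10 at 0.84 (adjusted p = 0.131) and Psme3, on the negative side, at -0.65 (adjusted p = 0.132). In muscle, the groups of these genes overlapped. Psmc6 had 747, 824 and 688 in mutant muscle, against 812, 725 and 861 in control muscle. Psmd14 had 744, 867 and 856 in mutant muscle, against 841, 760 and 801 in control muscle. Psma6 was likewise close in both, with 1547, 1619 and 1726 in mutant muscle, against 1588, 1612 and 1561 in control muscle. Psmb6 had 976, 821 and 790 in mutant muscle, against 927, 883 and 922 in control muscle. Psmd10 had 47.6, 54.6 and 42.8 in mutant muscle, against 66.4, 41.7 and 65.6 in control muscle, and Psme3 had 212, 245 and 186 in mutant muscle, against 197, 176 and 220 in control muscle. All 7 alpha genes tested were positive with a median of 0.50, and so were all 7 constitutive beta genes with a median of 0.36, where the median over all genes was 0.03. The lid had 0.14 and the activators -0.45. Neither Psma7 nor Psma3 passed with the values as deposited, where the count was 0. Leaving out single arrays gave 0 to 2, with 0 for every array except liver mutant 2 (2), liver mutant 3 (1) and muscle control 3 (1).

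Between control liver and control muscle, proteasome genes differed in both directions. After quantile normalisation over all 12 arrays, 11 of 49 genes were higher in control liver and 25 lower, where 26% of 14615 genes were higher and 28.3% lower. With values as deposited the split was 26 higher and 5 lower, beside a shift of 0.48 in the median of all genes. Of 14617 genes tested, 6409 were higher and 2198 lower there. With median centring the split was 18 and 10, where 4138 of 14617 genes were higher and 3700 lower. Over the 3 scalings 11 genes were called higher in each, 5 lower in each, 31 varied and 2, Psmb5 and Psmd11, were called in opposite directions. The share of all genes called alike under all 3 scalings is not given here.

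The 11 genes called higher in control liver under all 3 scalings included the 3 immunoproteasome subunits Psmb8, Psmb9 and Psmb10. The thymus-specific Psmb11 was called too, but it had 2.41, 5.26 and 19.4 in control muscle, where it did not pass the filter on low values, so its call is not read further. Psmb9 had 162, 241 and 89.6 in control livers, against 5.16, 38.4 and 55.9 in control muscle, a difference of 1.95 (SE 0.38, adjusted p = 0.000342, limma). Psmb8 had 168, 242 and 91.0 in control livers, against 31.6, 39.5 and 52.3 in control muscle, a difference of 1.60 (SE 0.31, adjusted p = 0.000329). No control muscle reached the lowest control liver in either gene, and how often that held over all genes is not given here. Psme1 was also higher, by 0.90 (SE 0.12). Among assembly chaperones 5 of 7 were higher under all 3 scalings, where 26% of all genes were higher after quantile normalisation alone. Psmg4 had 256, 212 and 170 in control livers, against 78.7, 83.9 and 52.0 in control muscle, a difference of 1.39 (SE 0.19). Psmd9, a chaperone of the base, had 259, 366 and 351 in control livers, against 118, 94.5 and 149 in control muscle, a difference of 1.33 (SE 0.19). Psmg1, Psmd5 and Psmg3 were higher by 1.16, 0.92 and 0.81. Psmf1 had 198, 198 and 261 in control livers, against 103, 91.7 and 67.4 in control muscle, a difference of 1.19 (SE 0.18).

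The 5 genes called lower in control liver under all 3 scalings were the activator Psme4 and 4 genes of the regulatory particle. Psme4 had 646, 697 and 711 in control livers, against 2251, 2766 and 2627 in control muscle, a difference of -1.87 (SE 0.11, adjusted p = 4.68e-10, limma), the largest in size among the genes called lower. Psmd6, of the lid, had 763, 1024 and 846 in control livers, against 2787, 2621 and 2268 in control muscle, a difference of -1.53 (SE 0.13). Psmd7, the partner of Psmd14 in the lid, had 180, 253 and 260 in control livers, against 626, 639 and 801 in control muscle, a difference of -1.52 (SE 0.15). None of these 3 genes had an overlap between tissues. The share of all genes without such overlap is not given here, and 28.3% of all genes were called lower after quantile normalisation. Psmd1, a scaffold of the base, had 623, 601 and 725 in control livers, against 1694, 1509 and 1760 in control muscle, a difference of -1.33 (SE 0.11). Psmc5, an ATPase, had 494, 655 and 728 in control livers, against 1466, 1708 and 1563 in control muscle, a difference of -1.33 (SE 0.15). Psmc3 had 556, 754 and 807 in control livers, against 1373, 1373 and 1567 in control muscle, a difference of -1.02 (SE 0.14), but as deposited it stood at -0.24 (adjusted p = 0.251).

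By class, all 17 genes of base and lid were lower in control liver after quantile normalisation, with a median of -0.63. Of 15 core particle genes 5 were lower (33.3%), near the 28.3% of all genes tested, and their median was 0.00. The alpha ring had a median of 0.00 with 2 of 8 lower, Psma6 at -0.70 and Psma3 at -0.57. Psmb7 stood at -0.86 and Psmb5 at -0.40, both called lower, whereas Psmb6 had -0.25 without a call. These class counts depend on the scaling. Under all 3 scalings, 2 lid genes, 1 ATPase and 1 non-ATPase gene of the base were called lower. As deposited, the lid genes Psmd11, Psmd8 and Psmd3 stood at 0.37, 0.36 and 0.35.

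**Figure D5:**
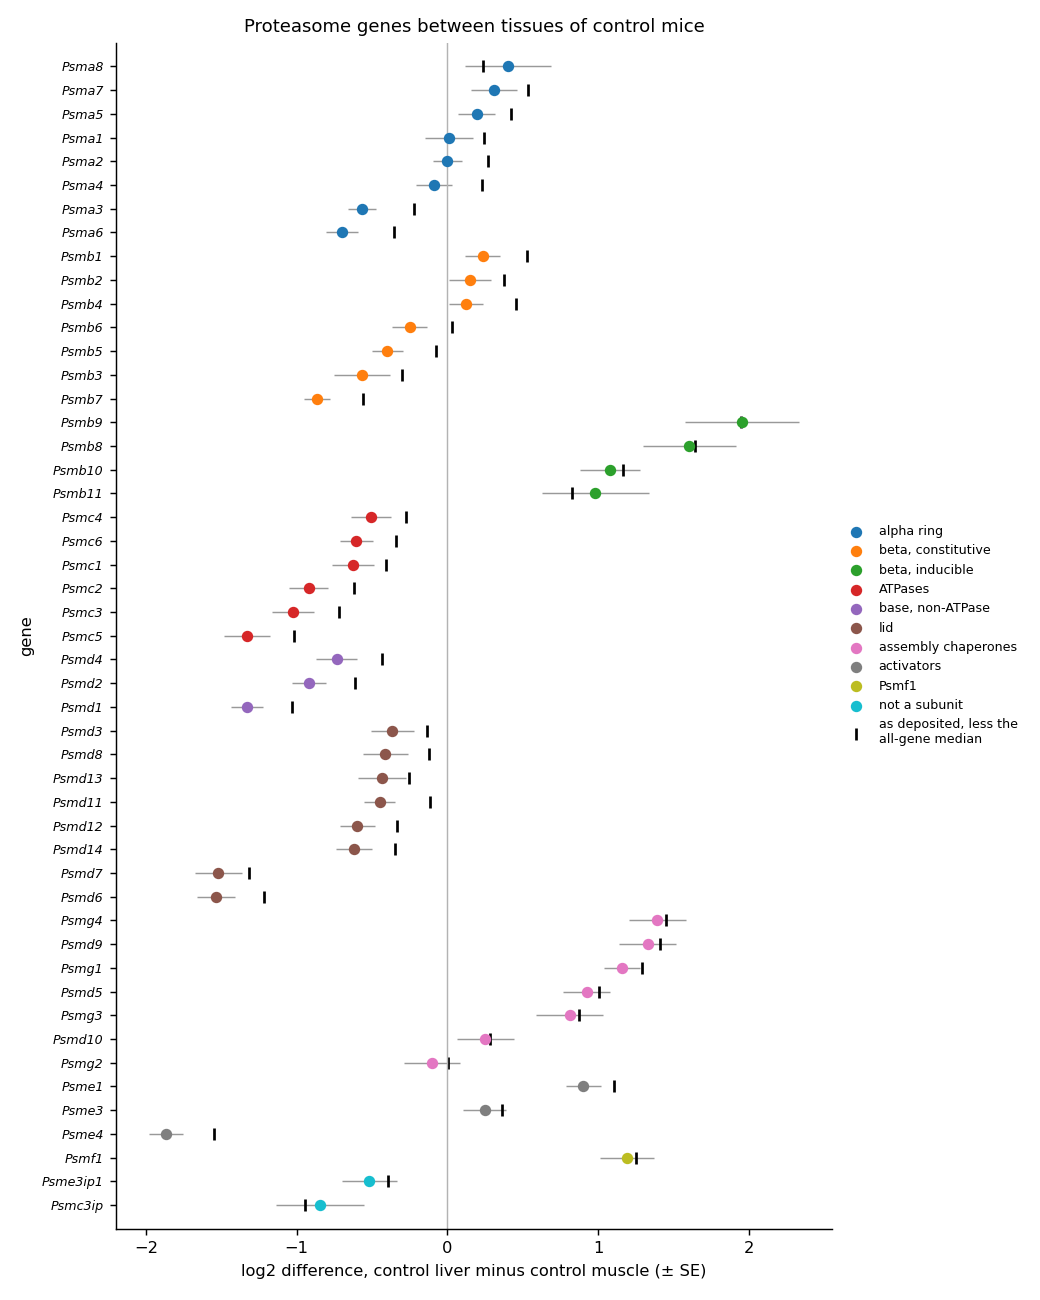
Log2 difference, control liver minus control muscle (axis in log2 units), for each proteasome gene by role; dots with bars of ± 1 SE are values after quantile normalisation over 12 arrays, and ticks the values as deposited less the median of all genes. The immunoproteasome subunits (1.95 for Psmb9, 1.60 for Psmb8 and 1.08 for Psmb10) and most assembly chaperones (median 0.92) lie above 0, and the genes of base and lid (median -0.63) below it on the dots.

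The lists of the wider ubiquitin pathway had medians between -0.33 and 0.08 in mutant liver. Of all genes tested 2.33% rose and 19.6% had an unadjusted p under 0.05. Of 10 genes for proteasome-associated factors 1 rose and 5 had such a p, with a median of -0.15. The gene that rose was Pomp, the maturation factor that guides assembly of the beta rings. It had 3091, 2711 and 3302 in mutant livers, against 1907, 1723 and 1754 in control livers. The difference was 0.75 (SE 0.11, adjusted p = 0.0181, limma) with no overlap. Of 18 ubiquitin-conjugating enzymes 1 rose (5.56%) and 7 had an unadjusted p under 0.05, with a median of 0.05. Ube2v2, an inactive enzyme variant that works with Ube2n in building ubiquitin chains, had 250, 214 and 158 in mutant livers, against 87.7, 91.1 and 59.3 in control livers, a difference of 1.22 (SE 0.21, adjusted p = 0.0217). Both calls are lost with RNA integrity as a covariate, without the variance trend and without mutants 1 and 3, where 0 of all genes tested passed as higher. The 6 genes of shuttle factors and Vcp, which bring substrates to the proteasome, had 0 past the test, 4 at an unadjusted p under 0.05, 0 positive and a median of -0.33, where 19.6% of all genes had such a p and 51.2% were positive. Of ubiquitin genes and E1 enzymes 1 was tested, at 0.08, and of the muscle ubiquitin ligases of atrophy 1 was tested in liver, at -0.14.

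The transcription factors known to act on proteasome genes gave 0 of 11 past the test, with 0 at an unadjusted p under 0.05 and a median of -0.08. Nfe2l1 had 473, 480 and 415 in mutant livers, against 669, 631 and 434 in control livers, a difference of -0.31 (SE 0.18, adjusted p = 0.387, limma). Nfe2l2 had 599, 663 and 405 in mutant livers, against 589, 549 and 580 in control livers, a difference of -0.07 (SE 0.18, adjusted p = 0.880). Both genes overlapped between groups, and their activity as proteins was not measured. Of 11 antigen presentation genes, which use the peptides that the immunoproteasome cuts, 0 rose and 1 fell, 0 were positive, and the median was -0.27. Of all genes tested 1.03% fell and 51.2% were positive. An unadjusted p under 0.05 was found for 6 of the 11, against 19.6% of all genes. H2-D1, a class I heavy chain, had 2820, 3335 and 3056 in mutant livers, against 4185, 4203 and 4074 in control livers, a difference of -0.44 (SE 0.10, adjusted p = 0.0421). That call is lost without the variance trend and without mutants 1 and 3, where 0 of all genes tested passed as lower. Of 9 interferon-induced GTPases 0 passed in liver, with 2 (22.2%) at an unadjusted p under 0.05, near the 19.6% of all genes.

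In muscle the same lists had 0 past the test, apart from Iigp1, an interferon-induced GTPase, as 1 of 9. It had 670, 628 and 1142 in mutant muscle, against 92.7, 99.2 and 168 in control muscle, a difference of 2.60 (SE 0.25, adjusted p = 0.00699, limma). Every mutant stood above every control. Of all 13131 genes tested in muscle 2 passed. The call for Iigp1 is lost without the variance trend, where 0 of all genes tested passed in either direction. Psmb8, Psmb9 and Psmb10 in the same muscles had differences of -0.05, -0.02 and -0.10. Pomp had 0.11 and Nfe2l1 had -0.10. Of the 4 muscle ubiquitin ligases of atrophy tested 0 passed, and 0 had an unadjusted p under 0.05.

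Cell type markers were read beside these results. Of 13 Kupffer cell and macrophage markers 3 rose in mutant liver, namely Tyrobp at 1.34 (adjusted p = 0.0169), Lyz2 at 1.28 (adjusted p = 0.0181) and Vsig4 at 0.80 (adjusted p = 0.0453, limma), where 2.33% of all genes rose. These 3 calls are lost with RNA integrity as a covariate and without the variance trend, where 0 of all genes passed as higher. Of the 13 differences 12 were positive with a median of 0.41, and the summed intensity of the 13 ran from 4496 to 5506 in mutant livers and from 2816 to 3909 in control livers, without overlap. None of the 6 T and NK cell, 3 B cell, 3 neutrophil or 5 endothelial markers tested passed. T and NK cell markers summed to 245 to 403 in mutant livers and 187 to 283 in control livers, B cell markers to 140 to 180 in mutant livers and 146 to 150 in control livers, and neutrophil markers to 121 to 214 in mutant livers and 142 to 176 in control livers. Of the T and NK cell markers Cd3d and Cd3e averaged 5.31 and 15.7 in mutant livers, against 3.38 and 12.6 in control livers, while Cd3g and Thy1 averaged 11.3 and 28.8 in mutant livers, against 21.3 and 41.7 in control livers. Adipocyte markers summed to 176 to 245 in mutant livers and 132 to 143 in control livers, without overlap, and 1 of the 3 was tested. This was Fabp4, a fatty acid binding protein, which had 213, 187 and 146 in mutant livers, against 104, 107 and 87.1 in control livers, a difference of 0.77 (SE 0.18, adjusted p = 0.0502, limma) without overlap. Cidec and Adipoq, the other adipocyte markers measured, averaged 9.77 and 12.8 in mutant livers, against 23.4 and 14.8 in control livers. The higher sum in mutants thus came from Fabp4. The part of macrophages or fat cells in the values of the proteasome genes was not tested.

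The tissues matched their labels. Of 6 hepatocyte markers 0 passed the test in liver, with 0 positive. Their summed intensity, normalised within each tissue, ran from 66759 to 69186 in mutant livers and from 72729 to 74203 in control livers, and from 57 to 119 in muscle. Muscle fibre markers summed to between 79075 and 80170 on muscle arrays, against 123 to 213 on liver arrays. Any pair of liver arrays correlated at 0.947 to 0.966, and any pair of muscle arrays at 0.964 to 0.975. As deposited, liver arrays had medians of 27.2 to 40.1 and muscle arrays of 20.1 to 22.3. Ppargc1b, the mutated gene, had 402, 491 and 202 in mutant livers, against 544, 282 and 479 in control livers, a difference of -0.28 (SE 0.32, adjusted p = 0.692, limma). In muscle it had 423, 280 and 271 in mutants, against 302, 284 and 332 in controls, a difference of 0.06 (SE 0.17, adjusted p = 0.998). Its RNA level thus does not tell mutants from controls, and whether its probes lie inside the mutated stretch was not checked here.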

How the data were processed

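Linear probe set intensity was used as deposited by the authors, with 1 column for each of 12 arrays. How probes were summarised and how arrays were scaled is not stated in the sources used here; d-Chip is named in the design text as the tool for clustering. The table holds 45101 probe sets, from which 64 controls were removed. The platform annotation gives 1 symbol to 34945 of the rest, more than 1 to 932 and no symbol to 9160, with 34741 updated through Entrez identifiers. The probe set with the highest mean stood for its gene.

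Values were taken as log2(intensity + 16) and quantile-normalised within a tissue, or over all 12 arrays for the tissue comparison; printed intensities are back-transformed. Genes with a mean above the 40th percentile of probe sets were tested with limma 3.58.1 in R 4.3.3 (eBayes with trend), with p-values adjusted by Benjamini-Hochberg over every gene tested and called under 0.05. The number of arrays limits the precision. Fits were tested on simulated data. Tables used pandas 2.3.3 and numpy 2.4.6 and figures matplotlib 3.10.9 in Python 3.11.15.

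The members and lists were chosen with earlier results of these data known. Values on every array are given for proteasome genes past the threshold or, where fewer than 8 passed, for the 8 with the smallest p, for the catalytic subunits, for Psme1, for genes whose probe sets disagreed, for the 6 largest tissue differences each way, and for list members past the threshold with Nfe2l1 and Nfe2l2; a few further members are named with their values. Alternatives were other scalings, offsets, filters, variance models and probe set choices, a replicate block, a covariate for RNA integrity and leaving out arrays.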

Additional observations from a re-analysis of the deposited data

Results flagged for a closer look

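The liver effect differed from the muscle effect, by the interaction term in limma, for the following genes of the proteasome or of the lists read beside it. Of all 11842 genes tested, 137 passed higher and 31 lower. Without the variance trend 0 of all genes tested passed in either direction, so every call named here is lost there. Values are log2 differences, liver effect minus muscle effect. Psma7 stood at 0.94 (adjusted p = 0.0460), with 0.78 in liver and -0.16 in muscle. Psma3 stood at 0.55 (adjusted p = 0.0460), with 0.67 in liver and 0.12 in muscle. Ube2v2, a ubiquitin-conjugating enzyme variant, stood at 1.19 (adjusted p = 0.0408), with 1.22 in liver and 0.04 in muscle. Tyrobp, a macrophage marker, stood at 1.25 (adjusted p = 0.0173), with 1.34 in liver and 0.09 in muscle. Cd5l, a further macrophage marker, stood at 1.12 (adjusted p = 0.0358), with 0.41 in liver and -0.71 in muscle. In muscle it had 6.26, 8.46 and 8.45 in mutants, against 25.9, 20.3 and 22.7 in controls, values near or under the offset of 16. Iigp1, an interferon-induced GTPase, stood at -2.68 (adjusted p = 0.00351), with -0.08 in liver and 2.60 in muscle.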

How the results depend on the processing

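The count of 5 proteasome genes past the threshold in liver was 3 with median centring, 2 without a filter on low values, 2 when a gene's probe sets were averaged, 0 without a variance trend, 0 with the replicate block, 0 with RNA integrity (3′ to 5′ ratio) as covariate and 0 without liver mutants 1 and 3. Leaving out single arrays gave 0 to 6. With the values as deposited it was 4, and all genes tested gave 279 higher and 18 lower calls there, against 310 and 137. The counts of 0 stand beside 2332 genes of all tested at an unadjusted p under 0.05 without the trend, 2349 with the block, 1009 with the covariate and 1091 without those 2 mutants, against 2614 in the limma fit as reported. After adjustment, over all genes tested, 0 passed in either direction without the trend and without those 2 mutants, and 0 passed higher and 2 lower with the covariate. The median over the 48 proteasome genes, 0.29 as reported, was 0.10 with the covariate, 0.13 without those 2 mutants and 0.17 without control 1. Over all these fits the adjusted p ran from 0.00763 to 0.386 for Psma3 and from 0.0206 to 0.488 for Psma7. The count of 2 for the difference between tissues was 0 as deposited, 0 with median centring, 1 with an offset of 1, 0 without the filter, 0 without the trend, 0 with the mean of probe sets, 1 with every probe set on its own and 0 with the replicate block. Leaving out single arrays gave 0 to 2. Between control tissues, 26 genes were higher as deposited and 18 with median centring, against 11, and 5 and 10 lower, against 25. In muscle the count was 0 under every alternative tried. In liver, same-numbered mutants and controls had deviations that correlated at -0.01, -0.11 and -0.03, against -0.08 to 0.11 for different numbers. In muscle they correlated at 0.03, 0.09 and 0.20, against -0.16 to 0.09 for different numbers. With the block 750 of all genes in muscle had an unadjusted p under 0.05 in limma, against 560 without it. Whether the numbers pair the muscle samples was not settled. With the block 11 of all genes passed in liver, 10 higher and 1 lower. The cause of these changes was not tested. With 3 arrays a group and 1 summary value per probe set, probe-level signal over background could not be read.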
